A study of Danio rerio with 4 samples.

Results

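The genes described here, measured in zebrafish liver, mostly encode enzymes that conjugate foreign and endogenous compounds or convert alcohols, aldehydes and epoxides. They were chosen by name: every probe was taken whose gene symbol in the platform's annotation begins with ugt, sult, aldh, adh, akr, fmo or nat and a digit, or with ephx. This gave 66 genes on 91 probes, of 15554 genes in all. They comprised 18 UDP-glucuronosyltransferase genes (ugt), 15 cytosolic sulfotransferase genes (sult), 16 aldehyde dehydrogenase genes (aldh), 5 aldo-keto reductase genes (akr), 4 alcohol dehydrogenase genes (adh), 4 epoxide hydrolase genes (ephx) and 4 genes whose symbols begin with nat. The ugt genes include ugt8, whose mammalian enzyme adds galactose to ceramide, and it is counted with the glucuronosyltransferase genes below. No flavin-containing monooxygenase gene (fmo) was found under that prefix. Membership follows the symbol alone, though the families were picked with earlier results of these data known.

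UDP-glucuronosyltransferases join glucuronic acid to small molecules such as bilirubin, steroids and drugs, and sulfotransferases join a sulfonate group to phenols, alcohols and steroids. Both make the product more soluble in water, so that bile or urine can carry it away, and in vertebrates the liver is a main site of these reactions. Aldehyde dehydrogenases oxidise aldehydes to acids, aldo-keto reductases reduce aldehydes and ketones to alcohols, alcohol dehydrogenases interconvert alcohols and aldehydes, and epoxide hydrolases add water to epoxides. Several of these enzymes serve ordinary metabolism, of amino acids, folate, retinoids and lipids, rather than defence against foreign compounds.

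Liver RNA from zebrafish given 5 µM cadmium (replicates 1 and 2) was compared with liver RNA from controls at 0 µM (replicates 2 and 3), all at day 4. The series' design text calls the replicates biological. The labels name no strain, sex, age or route of exposure and no number of fish behind each RNA, so the test measures only the spread between these RNAs. The 4 RNAs were set against each other on 4 arrays with 2 dyes, in a loop that labelled each RNA once with Cy5 and once with Cy3. Arrays 1 and 2 carried cadmium replicate 1, arrays 3 and 4 carried cadmium replicate 2, control replicate 2 was on arrays 1 and 4, and control replicate 3 was on arrays 2 and 3.

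A pair of quantities is given for a gene, each the mean over its probes. An array value is the log2 ratio of cadmium over control on 1 array. An RNA level is the log2 value of 1 RNA relative to the mean of the 4 RNAs, after the dye effect was solved out of the loop. The log2 difference is the mean of the cadmium RNA levels minus the mean of the control RNA levels, with its moderated standard error (SE) from limma, 2 RNAs per group. Ratios carry no signal level, so neither the abundance of an enzyme's RNA nor the presence of the liver's defining markers could be read from the files, and levels were not compared between genes. The dye direction of the deposited ratios is not stated. It was taken as Cy5 over Cy3, and under the opposite direction each sign here would turn.

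The RNAs differed in the markers of other tissues they carried. Of the ovary and oocyte markers 24 were measured, and for all 24 the top RNA was cadmium replicate 2. Their RNA levels had medians of -0.64 and 1.33 in cadmium replicates 1 and 2, against -0.40 and -0.16 in control replicates 2 and 3. Exocrine pancreas markers had medians of 0.02 and 0.33 in cadmium replicates 1 and 2, against 0.72 and -0.86 in control replicates 2 and 3. All 9 measured leukocyte markers had log2 differences below 0, and their median levels were 0.005 and -0.28 in cadmium replicates 1 and 2, against 0.07 and 0.06 in the controls. Medians of 6 intestine markers were -0.12 and 0.28 in the cadmium RNAs, against 0.16 and -0.21 in the controls, and those of 6 red cell markers were 0.15 and -0.13 in the cadmium RNAs, against 0.19 and -0.05 in the controls. The 18 measured hepatocyte markers had medians between -0.05 and 0.05 in all 4 RNAs, but single markers were less even. Levels of ttr were 0.40 and -0.80 in cadmium replicates 1 and 2, against 0.35 and 0.05 in the controls. Those of tfa were -0.07 and 0.32, against -0.18 and -0.08. Cadmium replicate 2 was the lowest RNA for 6 of the 18 and the highest for 4. Over the 18, cadmium RNAs differed by a median of 0.18 in size and controls by 0.25, beside 0.16 and 0.11 over all genes. In bulk RNA, fewer cells of a type and less RNA per cell cannot be told apart.

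No conjugation or carbonyl enzyme gene passed the test after adjustment over all genes (limma, adjusted p = 0.9998 for each of the 66). The same was true of all genes, 0 of which (0%) were called, with a smallest adjusted p of 0.567. At an unadjusted threshold of 0.05, 5 of the 66 (7.58%) passed, beside 314 of 15554 genes (2.02%). These were aldh7a1 and akr1b1.1, higher in cadmium livers, and sult6b1, sult1st4 and sult3st4, lower in cadmium livers. With arrays as units in place of RNAs, 9 of the 66 (13.6%) passed that threshold, beside 5% of all genes. Without a dye term 12 (18.2%) passed, beside 7.13%. Each RNA was on 2 arrays, so the arrays are not independent, and these settings treat them as if they were. After quantile normalization of the arrays 2 passed (aldh7a1 and sult1st4), or 3.03% beside 2.33% of all genes. A size of 0.5 or more together with 4 arrays of the same sign was found for 3 genes on the higher side (aldh7a1, akr1b1.1 and aldh1l2), beside 0.649% of all genes, and for 2 on the lower side (sult6b1 and sult1st4), beside 1.08% of all genes. Both cadmium RNAs stood above both controls for 7 of the 66, beside 11.7% of all genes, and below both controls for 10, beside 10.2% of all genes. Over the 66 genes 31 lay above 0 and 35 below, beside 8854 above and 6700 below among all genes. The median log2 difference was -0.01 against 0.02 over all genes. After quantile normalization the median of the 66 was 0.015.

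**Figure D1:**
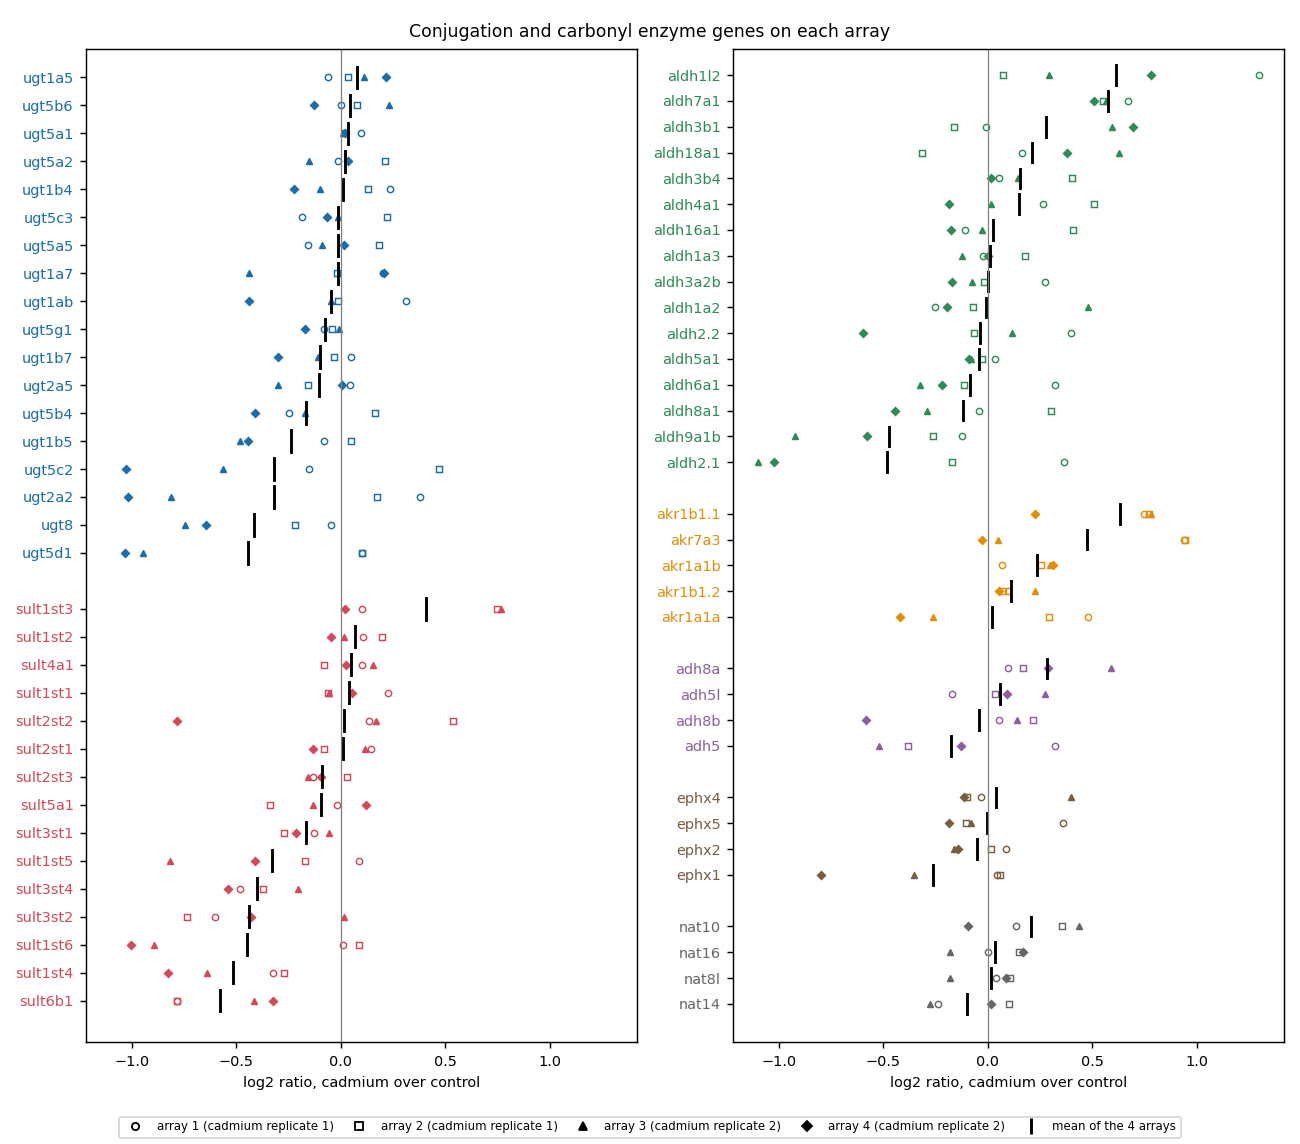
Array values of the 66 genes, as log2 ratio of cadmium over control on the horizontal axis. Open symbols are arrays 1 and 2 (cadmium replicate 1), filled symbols are arrays 3 and 4 (cadmium replicate 2), and black bars are the mean of the 4 arrays. For aldh7a1 the 4 arrays lie between 0.51 and 0.67, while for ugt5d1 the open symbols lie at 0.10 and the filled ones at -0.95 and -1.03.

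Among the aldehyde dehydrogenases, aldh7a1 (Entrez Gene 334197) differed between the groups with little spread within them. The enzyme oxidises an aldehyde formed in lysine breakdown, and in mammals also betaine aldehyde. Its RNA levels were 0.32 and 0.25 in cadmium replicates 1 and 2, against -0.30 and -0.27 in control replicates 2 and 3. The groups did not overlap, and the array values ran from 0.51 to 0.67. The log2 difference was 0.57 ± 0.09, a 1.49-fold higher level in cadmium livers, and by the size of its moderated statistic it ranked 18 among all genes. A single probe measured it. This was also so for aldh1l2, aldh2.1, akr7a3, sult6b1, sult3st4, sult3st2, sult1st6, ugt2a2, ugt5d1, ugt5c2 and ugt8. Of the 66 genes, 21 had more than 1 probe, and for 11 of these all probes lay on one side of 0.

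The gene aldh1l2 (Entrez Gene 100333269) encodes the mitochondrial 10-formyltetrahydrofolate dehydrogenase, which takes a carbon unit out of the folate pool. Its RNA levels were 0.38 and 0.23 in the cadmium RNAs, against -0.73 in control replicate 2 and 0.12 in control replicate 3. The cadmium RNAs were alike and the controls were not, so the value on array 1 (1.30) was far above that on array 2 (0.07). The log2 difference was 0.61 ± 0.32. It was 0.18 without control replicate 2 and 1.04 without control replicate 3.

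On the lower side, aldh9a1b, whose mammalian counterpart makes a precursor of carnitine, had RNA levels of 0.04 and -0.52 in cadmium replicates 1 and 2, against 0.11 and 0.36 in the controls. The groups did not overlap, but cadmium replicate 1 lay close to control replicate 2. Its 3 probes gave log2 differences between -0.52 and -0.40, and the gene stood at -0.47 ± 0.23. Without cadmium replicate 2 it was at -0.19, and without cadmium replicate 1 at -0.75.

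The neighbouring pair aldh2.1 and aldh2.2 are counterparts of the mammalian mitochondrial enzyme that removes acetaldehyde. For aldh2.1 the RNA levels were 0.34 and -0.82 in cadmium replicates 1 and 2, against 0.09 and 0.39 in control replicates 2 and 3. Cadmium replicate 2 thus lay far below the other 3 RNAs, and the log2 difference of -0.48 ± 0.44 turned to 0.10 without it. For aldh2.2 the RNA levels were 0.19 and -0.22 in the cadmium RNAs, against 0.08 and -0.04 in the controls, with a log2 difference of -0.04 ± 0.17, or 0.048 after quantile normalization and 0.17 without cadmium replicate 2. In both genes cadmium replicate 2 was the lowest RNA and cadmium replicate 1 lay above the mean of the controls. The difference in size between these 2 genes was not tested.

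Cadmium replicate 2 also set aldh3b1 and aldh18a1 apart, on the higher side. The ovary and oocyte markers were highest in that RNA too, and their part in these values was not tested. The mammalian aldh3b1 enzyme oxidises aldehydes derived from lipids, and the aldh18a1 enzyme makes an intermediate of proline synthesis. RNA levels of aldh3b1 were -0.22 and 0.50 in cadmium replicates 1 and 2, against -0.20 and -0.08 in the controls, with both probes at 0.28. Those of aldh18a1 were -0.18 and 0.40 in the cadmium RNAs, against -0.17 and -0.05 in the controls. In each case cadmium replicate 1 did not stand above the controls, and the log2 differences, 0.28 ± 0.28 and 0.21 ± 0.23, turned to -0.084 and -0.076 without cadmium replicate 2. The probes of aldh18a1 disagreed, at 0.29, 0.34 and 0.007. On the last of these, cadmium replicate 2 (0.09) lay close to control replicate 3 (0.07). The gene aldh4a1, for an enzyme of proline breakdown, stood at 0.15 ± 0.20, and at -0.085 without cadmium replicate 1. The retinoic acid-forming aldh1a2 was at -0.01 ± 0.20. The remaining 7 aldehyde dehydrogenase genes lay between -0.12 and 0.15, and the family's median was 0.005, or 0.12 without cadmium replicate 2 and -0.084 without cadmium replicate 1.

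All 5 aldo-keto reductase genes lay above 0, beside 8854 of 15554 genes in all, with a median log2 difference of 0.23. The smallest value, that of akr1a1a at 0.02, turned to -0.34 without cadmium replicate 1. Control replicate 3 was the lowest RNA for 4 of the 5, beside 3982 of 15554 genes in all. It also had the lowest exocrine pancreas markers, and the part of those markers in these values was not tested. Aldose reductase, encoded by akr1b1.1 (Entrez Gene 415138), reduces glucose to sorbitol and also clears reactive aldehydes. Its RNA levels were 0.44 and 0.19 in cadmium replicates 1 and 2, against -0.17 and -0.46 in control replicates 2 and 3. The groups were separate, and array 4 (0.22) was lower than arrays 1 to 3 (0.75, 0.77 and 0.78). The log2 difference was 0.63 ± 0.16, a 1.55-fold higher level in cadmium livers, and its 2 probes stood at 0.62 and 0.64. Leaving out 1 RNA at a time gave values between 0.49 and 0.78. Its neighbour akr1b1.2 was at 0.11 ± 0.09, with the groups separate by a small margin.

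For akr1a1b, an aldehyde reductase, RNA levels were 0.05 and 0.19 in the cadmium RNAs, against -0.07 and -0.16 in the controls, and the log2 difference was 0.23 ± 0.10. Its paralogue akr1a1a lay on opposite sides in the cadmium RNAs, at 0.37 and -0.35 in replicates 1 and 2, against -0.02 and -0.004 in the controls. Its log2 difference of 0.02 ± 0.27 therefore averaged values on either side of the controls. The aldehyde reductase gene akr7a3, whose rat counterpart acts on a product of aflatoxin, was high in 1 RNA. It stood at 0.70 and -0.23 in cadmium replicates 1 and 2, against -0.22 and -0.26 in the controls. The log2 difference of 0.47 ± 0.34 was 0.94 without cadmium replicate 2, 0.009 without cadmium replicate 1 and 0.73 after quantile normalization.

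Of the 15 sulfotransferase genes, 8 (53.3%) had both cadmium RNAs below the mean of the controls, beside 21.3% of all genes, and 6 had both cadmium RNAs below both controls, beside 10.2% of all genes. The family's median log2 difference was -0.09, with 6 genes above 0 and 9 below. Without cadmium replicate 2 the median was -0.042, with 7 above 0 and 8 below.

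For sult6b1 (Entrez Gene 322462), RNA levels were -0.49 and -0.08 in cadmium replicates 1 and 2, against 0.26 and 0.31 in control replicates 2 and 3. The controls were alike and the cadmium RNAs both lay below them, replicate 1 by more. The log2 difference was -0.58 ± 0.17, a 1.49-fold lower level, and it was -0.37 without cadmium replicate 1.

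The sult1st genes of zebrafish act mainly on phenols. For sult1st4 (Entrez Gene 402915), RNA levels were -0.04 and -0.48 in cadmium replicates 1 and 2, against 0.32 and 0.20 in the controls. The order of the cadmium RNAs was the reverse of that for sult6b1. Both probes lay low, at -0.55 and -0.48, and the log2 difference was -0.52 ± 0.18. It was -0.30 without cadmium replicate 2.

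The sult3 genes, whose enzymes sulfonate steroids in zebrafish, lay below 0 in all 3 measured members. For sult3st4 the RNA levels were -0.23 and -0.17 in the cadmium RNAs, against 0.31 and 0.09 in the controls, so the groups were separate, and the log2 difference was -0.40 ± 0.11. Its neighbour sult3st2 was at -0.45 and 0.01 in cadmium replicates 1 and 2, against 0.30 and 0.14 in the controls. Here cadmium replicate 2 lay only a little below the controls, and the log2 difference of -0.44 ± 0.19 was -0.21 without cadmium replicate 1. The third, sult3st1, was at -0.17 ± 0.08. The platform's annotation does not show whether a probe also binds a close paralogue, so neighbouring family members may share signal.

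**Figure D2:**
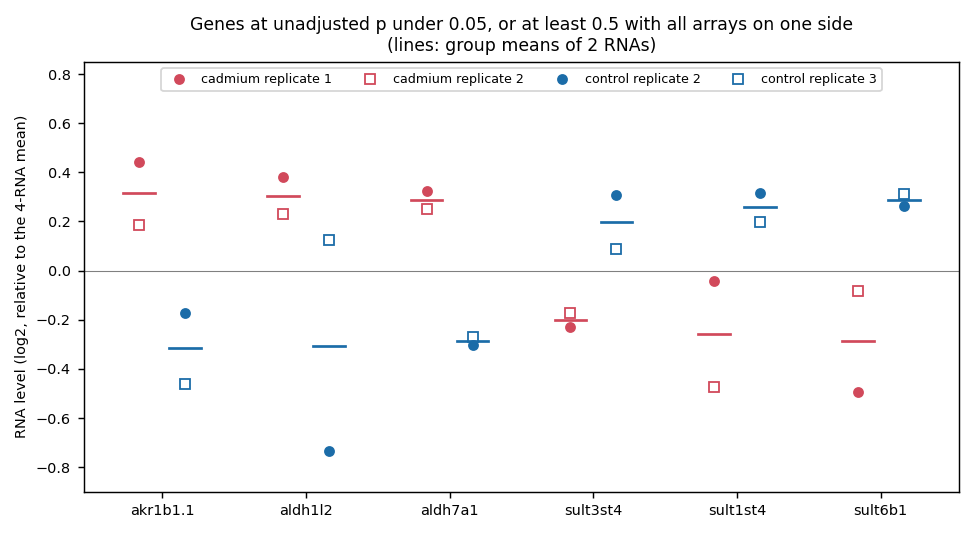
RNA levels of the 6 genes that had an unadjusted p under 0.05, or 4 arrays of the same sign with a size of 0.5 or more. The vertical axis is log2 relative to the mean of the 4 RNAs, points are single RNAs and lines are group means. Levels of aldh7a1 lie at 0.32 and 0.25 in the cadmium RNAs and at -0.30 and -0.27 in the controls, while for aldh1l2 control replicate 2 lies at -0.73, away from the other 3 RNAs.

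Other sulfotransferase genes depended on single RNAs. RNA levels of sult1st6 were 0.27 and -0.72 in cadmium replicates 1 and 2, against 0.27 and 0.18 in the controls, so that cadmium replicate 2 alone was low, and the log2 difference of -0.45 ± 0.37 turned to 0.047 without it. A like order was seen for sult1st5, at 0.12 and -0.45 in the cadmium RNAs, against -0.002 and 0.33 in the controls, with a log2 difference of -0.33 ± 0.25. It was -0.042 without cadmium replicate 2, -0.61 without cadmium replicate 1 and -0.16 without control replicate 3. In contrast, sult1st3 had similar levels in the cadmium RNAs (0.22 and 0.19) and in control replicate 2 (0.14), and control replicate 3 was low (-0.55). Its log2 difference of 0.41 ± 0.26 was 0.06 without control replicate 3. The steroid sulfotransferase gene sult2st2 differed within both groups, at 0.33 and -0.31 in the cadmium RNAs, against 0.33 and -0.35 in the controls, and its log2 difference was 0.01 ± 0.34. Control replicate 3, in which sult1st3 and sult2st2 were low, was also the RNA with the lowest exocrine pancreas markers, and their part in these values was not tested. A small difference with separate groups was seen for sult2st3 (-0.09 ± 0.09), and the remaining 5 sulfotransferase genes lay between -0.09 and 0.07.

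The glucuronosyltransferase genes gave no member at an unadjusted p under 0.05 and no member at 0.5 or more in size. Their median log2 difference was -0.06, with 5 above 0 and 13 below. Without cadmium replicate 2 it was 0.028, with 12 above 0 and 6 below, and without cadmium replicate 1 it was -0.16, with 3 above 0 and 15 below. Of the 18, 12 (66.7%) had their lowest level in cadmium replicate 2, beside 29.4% of all genes. This was not particular to the family. Cadmium replicate 2 was also lowest for 8 of 16 aldehyde dehydrogenase, 3 of 4 epoxide hydrolase and 5 of 15 sulfotransferase genes. It was lowest for 19 (61.3%) of 31 measured genes for electron partners and other carbonyl, alcohol and methyl-conjugating enzymes. Over the 66 genes the share was 47%. For 10 of the 18 (55.6%) cadmium replicate 1 lay above and cadmium replicate 2 below the mean of the controls, beside 23.8% of all genes. In cadmium replicate 2 the ovary and oocyte markers also had their highest median and the leukocyte markers their lowest, and their part in these values was not tested.

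The most divided gene of the 66 was ugt2a2 (Entrez Gene 553952), with RNA levels of 0.43 and -0.76 in cadmium replicates 1 and 2, against 0.16 and 0.16 in control replicates 2 and 3. The controls were equal to 2 decimals and the cadmium RNAs lay on either side of them. The log2 difference was -0.32 ± 0.43, and it was 0.27 without cadmium replicate 2. Its value was -0.15 after quantile normalization. In the ugt5 group, a group described in fish, the cadmium RNAs of some genes were also far apart. For ugt5d1 the RNA levels were 0.32 and -0.77 in the cadmium RNAs, against 0.24 and 0.20 in the controls. For ugt5c2 they were 0.32 and -0.64 in the cadmium RNAs, against 0.43 and -0.11 in the controls, so that cadmium replicate 1 lay between the controls. In both genes cadmium replicate 2 was the lowest RNA and cadmium replicate 1 lay above the mean of the controls, and the log2 differences, -0.44 ± 0.40 and -0.32 ± 0.40, turned to 0.10 and 0.16 without cadmium replicate 2. The ugt5a genes and ugt5g1, in contrast, lay near 0, with ugt5g1 at -0.08 ± 0.09.

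The gene ugt8, whose mammalian enzyme adds galactose to ceramide, had RNA levels of 0.07 and -0.49 in cadmium replicates 1 and 2, against 0.14 and 0.27 in the controls. The groups were separate, with cadmium replicate 1 just below control replicate 2. All 4 arrays lay below 0, and the log2 difference was -0.41 ± 0.22. It was -0.13 without cadmium replicate 2. In zebrafish the ugt1 genes have their own first exons and share the following ones, so their probes may read more than 1 transcript. Among them ugt1ab was at -0.05 ± 0.16, and at 0.022 after quantile normalization, and ugt1b5 at -0.24 ± 0.18. For ugt1b5 the value was -0.016 without cadmium replicate 2 and -0.46 without cadmium replicate 1. The probes of ugt1b5 disagreed, at -0.47 and -0.01. The remaining 11 glucuronosyltransferase genes lay between -0.17 and 0.08.

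**Figure D3:**
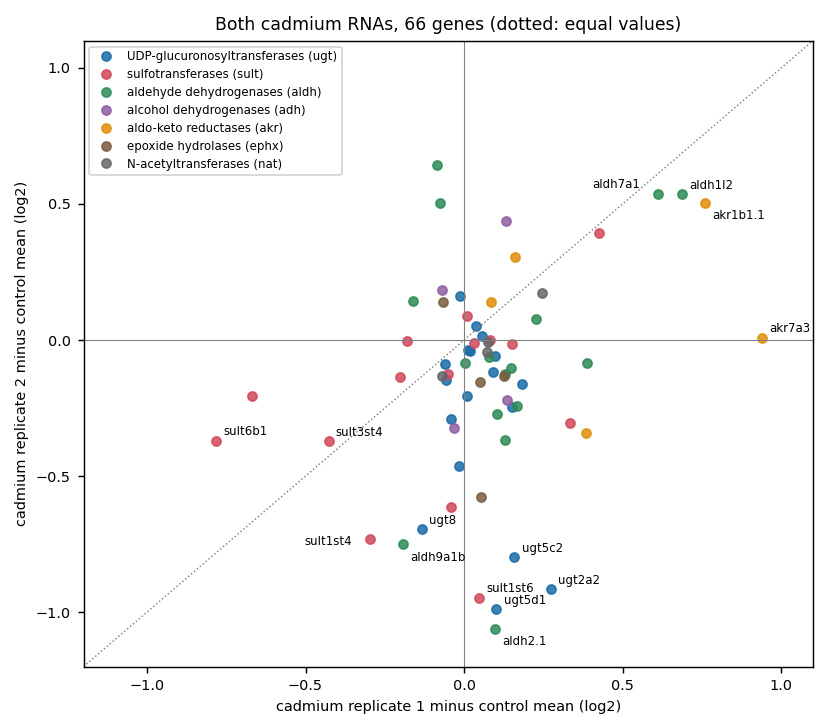
Cadmium replicate 1 (horizontal) and cadmium replicate 2 (vertical), each minus the mean of both controls in log2, for the 66 genes coloured by family. Genes on the dotted line have equal values in both cadmium RNAs. The lower right quadrant, with replicate 1 above and replicate 2 below the controls, holds 31 genes, among them ugt2a2 (0.27 and -0.92), ugt5d1 (0.10 and -0.99) and aldh2.1 (0.10 and -1.06).

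Over all 66 genes, 31 (47.0%) had cadmium replicate 1 above and cadmium replicate 2 below the mean of the controls, beside 23.8% of all genes, and 6 (9.09%) had the opposite order, beside 31.3%. Cadmium replicate 2 alone was at least 0.5 below the control mean for 10 of the 66 (15.2%), beside 4.59% of all genes, and at least 0.5 above it for 5, beside 9.58%. Cadmium replicate 1 alone was at least 0.5 above the control mean for 4 genes, beside 1.16% of all genes, and at least 0.5 below it for 2, beside 1.12%. These shares describe single RNAs, each set against the same controls. The cadmium RNAs differed by a median of 0.25 in size over the 66 genes, beside 0.16 over all genes, and the controls by 0.13, beside 0.11 over all genes. Over 31 measured genes for electron partners and other carbonyl, alcohol and methyl-conjugating enzymes, these medians were 0.45 and 0.15. Over 23 genes around xenobiotic receptors they were 0.06 and 0.07, and over 18 genes of cofactor supply 0.11 and 0.14. The standard deviation over all probes was 0.20 and 0.23 on arrays 1 and 2, and 0.39 and 0.35 on arrays 3 and 4.

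Set alone against both controls, cadmium replicate 2 gave 9 called genes of the 66 (limma, adjusted p between 0.0136 and 0.0483), beside 9.36% of all genes. On the lower side these were aldh2.1, ugt5d1, sult1st6, ugt2a2, aldh9a1b, sult1st4 and ugt8, between -1.06 and -0.69, and on the higher side aldh3b1 (0.64) and aldh7a1 (0.54). In this fit 1 RNA stood for the treatment and was assumed to vary like the controls. The cadmium RNAs, however, differed by more than the controls did, with medians of 0.25 against 0.13 over the 66 genes. Cadmium replicate 2 was also the RNA with the highest ovary and oocyte markers, and their part in these values was not tested. With cadmium replicate 1 alone, 0 of the 66 and 0 of all genes were called, and 8 of the 66 (12.1%) passed an unadjusted threshold of 0.05, beside 771 of all genes (4.96%).

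**Figure D4:**
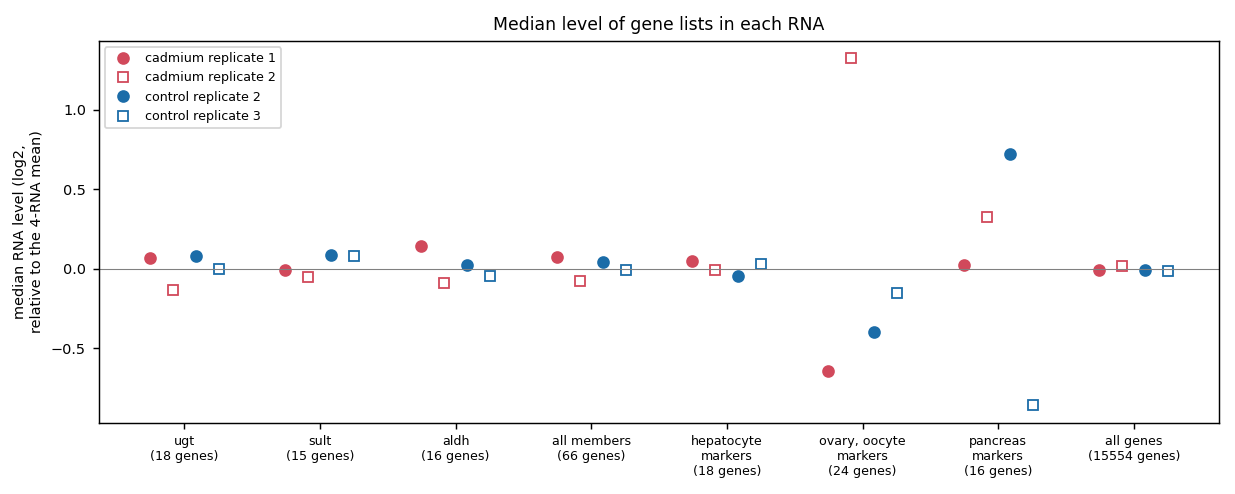
Median RNA level of gene lists in each RNA, in log2 relative to the mean of the 4 RNAs, with the number of genes under each list. Red points are cadmium RNAs and blue points control RNAs. The ugt and aldh medians are lowest in cadmium replicate 2 (-0.13 and -0.09), in which the ovary and oocyte markers are highest (1.33), and the pancreas markers differ most between the controls (0.72 and -0.86).

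The adh, ephx and nat genes, 4 in each family, lay between -0.26 and 0.28. Alcohol dehydrogenase adh8a, which in zebrafish oxidises ethanol, was higher on all 4 arrays, with RNA levels of -0.01 and 0.29 in the cadmium RNAs, against -0.05 and -0.23 in the controls. Cadmium replicate 1 lay just above control replicate 2, and the log2 difference of 0.28 ± 0.15 was 0.13 without cadmium replicate 2. The glutathione-dependent formaldehyde dehydrogenase gene adh5 was at 0.06 and -0.23 in cadmium replicates 1 and 2, against -0.19 and 0.36 in the controls, so the groups overlapped. Its log2 difference of -0.18 ± 0.24 turned to 0.10 without control replicate 3. The other 2 alcohol dehydrogenase genes lay at -0.04 and 0.06.

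The microsomal epoxide hydrolase gene ephx1, which detoxifies epoxides formed by cytochromes P450, was at 0.18 and -0.44 in cadmium replicates 1 and 2, against 0.25 and 0.02 in the controls. Its 3 probes stood at -0.44, -0.35 and 0.001, and the log2 difference was -0.26 ± 0.25, or 0.052 without cadmium replicate 2. The soluble enzyme's gene ephx2, acting on fatty acid epoxides, was at -0.05 ± 0.11, with its probes at -0.25 and 0.15. The other 2 epoxide hydrolase genes lay at -0.003 and 0.04.

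The 4 nat genes measured are not arylamine N-acetyltransferases, the drug-metabolising group of that name. One of them, nat10, acetylates cytidine in ribosomal and transfer RNA. It was at 0.14 and 0.07 in the cadmium RNAs, against 0.08 and -0.29 in the controls, and its log2 difference of 0.21 ± 0.16 was 0.02 without control replicate 3. Separate groups at a small difference were seen for nat14 (-0.10 ± 0.08). The other 2 lay at 0.01 and 0.03.

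Several of the genes lie near each other in the order of protein-coding genes of the RefSeq assembly GRCz12tu, at most 5 places apart. In the set sult1st1, sult1st2 and sult1st3 the log2 differences were 0.04, 0.07 and 0.41, and in the ugt1b set of 3 they ran from -0.24 to 0.01. The ugt5a set of 3 lay between -0.01 and 0.04.

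Genes around the supply of these reactions, and sulfatase-related genes, were set beside them. A list of 18 measured genes covered the supply, transport and turnover of UDP-glucuronic acid and activated sulfate, which the transferases use, with related carriers. Of these, 8 lay above 0 and 10 below. At an unadjusted p under 0.05 there were 0, beside 2.02% of all genes. The dehydrogenase that makes UDP-glucuronic acid, ugdh, was at -0.06 ± 0.10, and the synthases of activated sulfate, papss1, papss2a and papss2b, were at 0.02, -0.04 and -0.17. The gene ugp2a, whose enzyme makes UDP-glucose, differed within groups, with array values of 0.84 and 0.04 for cadmium replicate 1 and of -1.06 and -0.76 for cadmium replicate 2. Of 7 measured sulfatase-related genes 4 lay above 0 and 3 below. The genes gusb and sts, written on the same list, were not found, so the undoing of these conjugations was not covered. Again 0 were at an unadjusted p under 0.05, beside 2.02% of all genes.

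Of 23 measured genes for xenobiotic receptors, their partners and direct targets, 0 passed either threshold, beside 2.02% of all genes at the unadjusted one. Cadmium replicate 2 held the lowest level for 13 of the 23 (56.5%), beside 29.4% of all genes. The aryl hydrocarbon receptor gene ahr2 was at -0.14 ± 0.16, the pregnane X receptor gene nr1i2 at -0.13 ± 0.11 and nfe2l2a, for the regulator of electrophile responses, at -0.27 ± 0.35. RNA levels of nfe2l2a were 0.34 and -0.61 in cadmium replicates 1 and 2, against 0.10 and 0.17 in the controls, and those of ahr2 were 0.12 and -0.26, against 0.13 and 0.003. In both genes cadmium replicate 2 was low and cadmium replicate 1 lay above the mean of the controls. The quinone reductase gene nqo1, a usual target of nfe2l2a, was at 0.02 ± 0.19. Its RNA levels were also divided, at 0.25 and -0.22 in cadmium replicates 1 and 2, against 0.007 and -0.03 in the controls. Among 31 measured genes for electron partners and other carbonyl, alcohol and methyl-conjugating enzymes, 12 lay above 0 and 19 below. At an unadjusted p under 0.05 there was 1, beside 2.02% of all genes. It was rdh8a, a retinol dehydrogenase gene, with array values of -0.71, -0.64, -1.97 and -1.60 on arrays 1 to 4 and a log2 difference of -1.23 ± 0.41. The carbonyl reductase gene dhrs4 was also lower on all 4 arrays, at -0.46 ± 0.19. The P450 reductase genes pora and porb lay at 0.05 and -0.04. The largest value above 0 in this list was that of rdh10b, at 0.84 ± 0.94. Its RNA levels were -0.89 and 1.73 in cadmium replicates 1 and 2, against -0.35 and -0.49 in the controls. The part of the ovary and oocyte markers, also highest in cadmium replicate 2, was not tested. The gene xdh, at -0.39 ± 0.61, was divided the other way, with 0.62 and -1.02 in the cadmium RNAs.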

How the data were processed

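For 43603 probes on 4 arrays the authors deposited log2 ratios, with 0 missing values. Per the submitters' processing notes limma was used. How background, normalization and filtering were handled, and the version of limma, is not given in the sources used here. Base 2 was taken because a largest size of 6.14 would be out of range in base 10. Column medians lay between -0.000451 and 0.00373, so the ratios appear centred, while their direction and centring method are unknown. Direction was read as Cy5 over Cy3, which limma's convention and the order of the sample titles make likely. The dose unit is that of the series' design text, since the sample labels write another unit beside the same number. Of the probes, 23717 carried 1 gene symbol, and the other 19886 carried none or several. All 66 member genes were found in the RefSeq table.

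The loop was solved for 4 RNA levels and a dye effect. The cadmium and control RNAs, 2 each, entered lmFit and eBayes (limma 3.58.1, R 4.3.3), and p-values from both sides were adjusted by Benjamini-Hochberg over 15554 genes, at 0.05 (2 residual degrees of freedom, prior 1.91). Array noise enters the spread within groups more than the difference between groups, so the test is cautious where such noise prevails. The method was tested on simulated data without array noise, which checks the solving of the loop but not the effect of such noise. The rule named genes whose 4 arrays shared a sign at a size of 0.5 or more, genes at an unadjusted p under 0.05, the 2 largest statistics of each prefix, and the 5 genes with the widest gap between the cadmium RNAs. Other genes given with RNA levels were chosen after their values were seen. Alternatives were the unit of the test, array scaling, quantile normalization, the median over probes, a variance filter, probes in place of genes, and leaving out each RNA. Members and lists were chosen with earlier results of these data known. The number of arrays limits the precision. Sequences were not used here.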

Additional observations from a re-analysis of the deposited data

How the results depend on the processing

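No paired analysis was possible because the groups share only replicate number 2. The alternatives were followed gene by gene for 37 of the genes given with a value. Not among them were sult1st1, sult1st2 and the adh, ephx and nat genes given only as the other 2 of their family. Genes outside the 66, such as rdh8a, dhrs4 and nfe2l2a, were not followed either. Over the 37, the unit of the test, the array scaling and the median over probes turned 0 signs. The variance filter also turned 0 over the 34 genes it left. Quantile normalization turned aldh2.2 (0.048) and ugt1ab (0.022) and moved 9 values by over 1.5 times, among them akr7a3 (0.73), ugt2a2 (-0.15) and ugt5c2 (-0.19). No member was called under these settings (55 of the 66 were left by the variance filter), while 2 other genes were called with arrays as units and no dye term and 2 without the genes of lowest variance. The 5 genes of 0.5 or more with arrays of the same sign numbered 4 after quantile normalization. Medians of ugt and sult stayed below 0 and that of akr above 0 under scaling and quantile normalization, and that of adh was -0.0095 after scaling. With 1 RNA left out the ugt median ranged from -0.16 to 0.028, turning without cadmium replicate 2, the sult median from -0.16 to -0.042, the aldh median from -0.084 to 0.12 and the akr median from 0.14 to 0.38. Leaving out 1 RNA moved more. Genes called ranged from 0 to 1456 and members called from 0 to 9, both highest without cadmium replicate 1. Members on one side with at least 0.5 ranged from 6 to 15, counted on the 2 arrays left. A shared sign is easier to reach on 2 arrays than on 4, so these counts cannot be compared with the 5 above. The share of all genes passing on 2 arrays was not computed, so no excess among the 66 can be read from them. The median of the 66 ranged from -0.11 to 0.065. Signs turned for 16 of the 37 genes. These ranged from -0.45 to 0.10 for adh5, -0.34 to 0.38 for akr1a1a, -0.076 to 0.50 for aldh18a1, -0.22 to 0.21 for aldh1a2, -1.06 to 0.10 for aldh2.1, -0.24 to 0.17 for aldh2.2, -0.084 to 0.64 for aldh3b1, -0.085 to 0.39 for aldh4a1, -0.58 to 0.052 for ephx1, -0.15 to 0.051 for ephx2, -0.95 to 0.047 for sult1st6, -0.32 to 0.35 for sult2st2, -0.24 to 0.15 for ugt1ab, -0.92 to 0.27 for ugt2a2, -0.80 to 0.16 for ugt5c2 and -0.99 to 0.10 for ugt5d1. The cause was not tested.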
